A study of Mus musculus with 4 samples.

Results

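Genes of fat cells and of lipid metabolism were followed in mouse skin by 38 symbols listed for the hormones, droplet proteins, transcription factors and enzymes that make, store and release lipid. Of these, 29 had a probe set that names a single gene, out of 17097 such genes on the array. A probe set is a group of short probes that together report 1 transcript, and the 29 genes were read by 51 of them. Each gene was represented by its brightest probe set over the 4 arrays, 15 genes having only 1. The remaining 9 symbols, Plin1, Cfd, Scd2, Scd3, Acsl1, Agpat2, Cidec, Srebf1 and Awat2, were not named by a single-gene probe set and were not analysed here.

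The treated skin came from the shaved backs of male C3H mice aged 8 weeks that received 1% TCQA, a caffeoylquinic acid, on the skin every day for about 30 days, and is represented by the arrays TCQA 1 and TCQA 2. Control 1 and Control 2 hold skin of the same strain, sex and age that received the vehicle, Milli-Q water, on the same schedule. The labels date the samples to day 30, whereas the paper dates the collection later and describes days of acclimation before the treatment. It counts 5 mice per group, and no source used here says whether an array held 1 mouse or a pool, so that the p-values rest on array-to-array spread that could be technical alone.

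Dermal fat cells lie below the hair follicles and thicken and thin with the hair cycle. They take up fatty acids that lipoprotein lipase frees from blood lipids, join them to glycerol phosphate and keep the triglyceride in a droplet coated with perilipins, from which lipases release it again. Sebaceous glands and the upper epidermis run much of the same enzyme chain, so most of these genes are shared by fat cells, sebocytes and keratinocytes. Adipoq, Lep and Retn, which encode hormones of fat cells, are the members closest to a fat cell marker.

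The median of the lipid genes was high on 1 array. It stood at a log2 signal of 2.90 on TCQA 1 and 2.85 on TCQA 2, against 4.91 on Control 1 and 2.94 on Control 2. A log2 signal of 5 or more was reached by 1 member on TCQA 1 and by 0 on TCQA 2, against 12 on Control 1 and 0 on Control 2. Control 1 therefore stood apart from both TCQA arrays and from the other vehicle array alike. It held the highest of the 4 values in 20 of 29 members (69.0%), where the share over all 17097 genes was 33.9%, and the lowest in 4 (13.8%), where the share over all genes was 53.6%. It exceeded every other array by more than 1 on the log2 scale in 15 members (51.7%), against 19.9% of all genes.

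**Figure D1:**
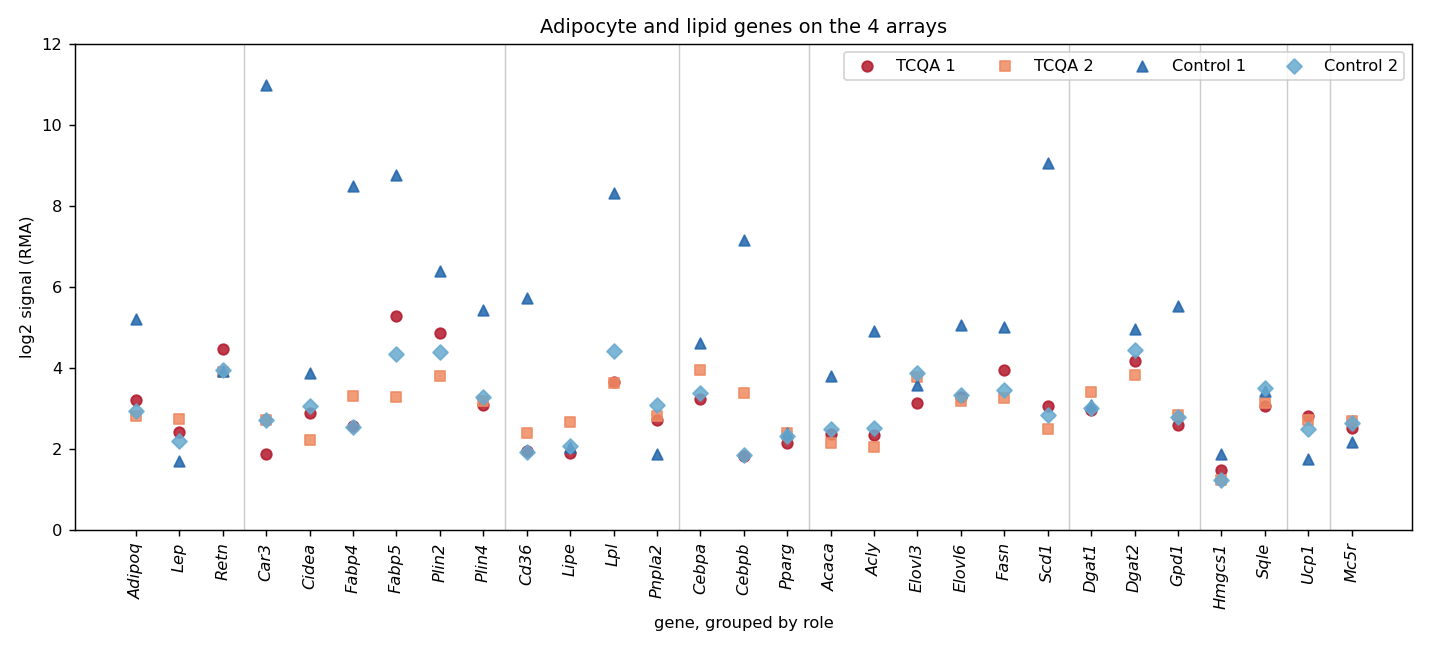
Log2 signal (vertical axis) of the 29 measured lipid genes (horizontal axis, grouped by role, with grey lines between roles) on TCQA 1, TCQA 2, Control 1 and Control 2, 1 symbol per array. The TCQA and Control 2 symbols stay at 5.27 or below, while the Control 1 triangles reach 10.99 for Car3 and are the highest symbol in 20 genes.

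The same array stood apart across the series. Over all probe sets the correlation of Control 2 was r = 0.956 to TCQA 1, r = 0.884 to TCQA 2 and only r = 0.413 to Control 1. Probe sets at a log2 signal of 8 or more numbered 31 on TCQA 1 and 23 on TCQA 2, against 522 on Control 1 and 26 on Control 2, while the array medians were 2.54 and 2.49 for TCQA and 2.30 and 2.55 for control. The medians of muscle and liver markers, and of markers of the skin's own keratinocytes and fibroblasts, were also highest on Control 1. The 14 skeletal muscle markers, all measured, had medians of 3.01 and 3.34 on the TCQA arrays, against 10.05 on Control 1 and 3.05 on Control 2. The summed linear signal of these markers was 159.7 on TCQA 1 and 182.1 on TCQA 2, against 21870 on Control 1 and 149.7 on Control 2. The 6 keratinocyte markers had medians of 2.85 and 3.32 on TCQA 1 and TCQA 2, against 8.23 and 3.13 on Control 1 and Control 2. For 9 of 10 liver markers the medians were 2.79 and 2.84, against 5.42 and 2.84. Their summed linear signal was 60.42 on TCQA 1 and 281.2 on TCQA 2, against 1360 on Control 1 and 60.21 on Control 2. TCQA 2 thus also stood above TCQA 1 and Control 2 in this sum. The 6 fibroblast markers had 2.49 and 2.43 on the TCQA arrays, against 4.34 on Control 1 and 2.46 on Control 2. Endothelial and macrophage markers stayed near the other arrays, with medians of 2.52 and 2.06 on Control 1, against 2.30 and 2.26 on Control 2. The part of these differences in the values of the lipid genes was not tested. In whole skin, fewer cells of a type and less RNA per cell cannot be told apart.

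No lipid gene passed the test between the groups. With limma and Benjamini-Hochberg adjustment over all probe sets, 0 of 29 members fell under an adjusted p of 0.05, as did 0 of all genes (0.00%), and the smallest adjusted p of a member was 0.923. At an unadjusted p under 0.05, limma counted 0 members and 61 of all genes, and the unmoderated test counted 1 member, Sqle, and 244 of all genes. The thresholds of the study's methods were a 2-fold difference and an unadjusted p of at most 0.05. With the limma p, 0 members met them in either direction, against 0.170% of all genes lower with TCQA and 0.140% higher. With the unmoderated test, the study's analysis of variance, 0 members met them too, and the share over all genes was not computed. With 2 arrays a side, the smallest p that an exact permutation test can give is 0.33.

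Both TCQA arrays lay below both control arrays in 9 members, Plin4, Cidea, Car3, Lpl, Acly, Acaca, Elovl6, Dgat2 and Sqle, and this order held for 13.6% of all genes. Both TCQA arrays lay above both controls in 2 members, Lep and Ucp1, an order that held for 16.0% of all genes. The log2 fold change, TCQA minus control throughout, was below 0 in 22 members and above 0 in 7, with a median of -0.88, while the median over all genes was 0.08. The 15 members with the Control 1 gap ran between -4.56 and -0.63, a sign that this gap all but sets, since Control 1 enters the control mean. The other 14 had 7 values below 0 and 7 above, between -0.89 and 0.65.

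With Control 1 left out, the differences shrank. The 29 members then had a median log2 fold change of -0.06, against -0.03 over all genes, with 17 below 0 and 12 above. Of the 12 members that differed by 1 or more on the log2 scale over the 4 arrays, none did so without Control 1, and only Lpl and Cebpb passed 0.5. TCQA 1 was nearer to Control 2 than to its own replicate. The median absolute difference between the members was 0.21 for TCQA 1 and Control 2, 0.36 for TCQA 2 and Control 2 and 0.40 for TCQA 1 and TCQA 2, against 1.30 for Control 1 and Control 2. Over all genes these differences were 0.19, 0.28, 0.28 and 0.79. A quantile normalization of the 4 arrays also shrank the differences, to a median of -0.36, and averaging all probe sets of each gene gave -0.37. Under the first, 17 of 29 members lost more than a factor of 1.5 in size or turned, among them Fabp5 (-0.95), Plin2 (-0.16), Fasn (-0.11) and Scd1 (-2.00).

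**Figure D2:**
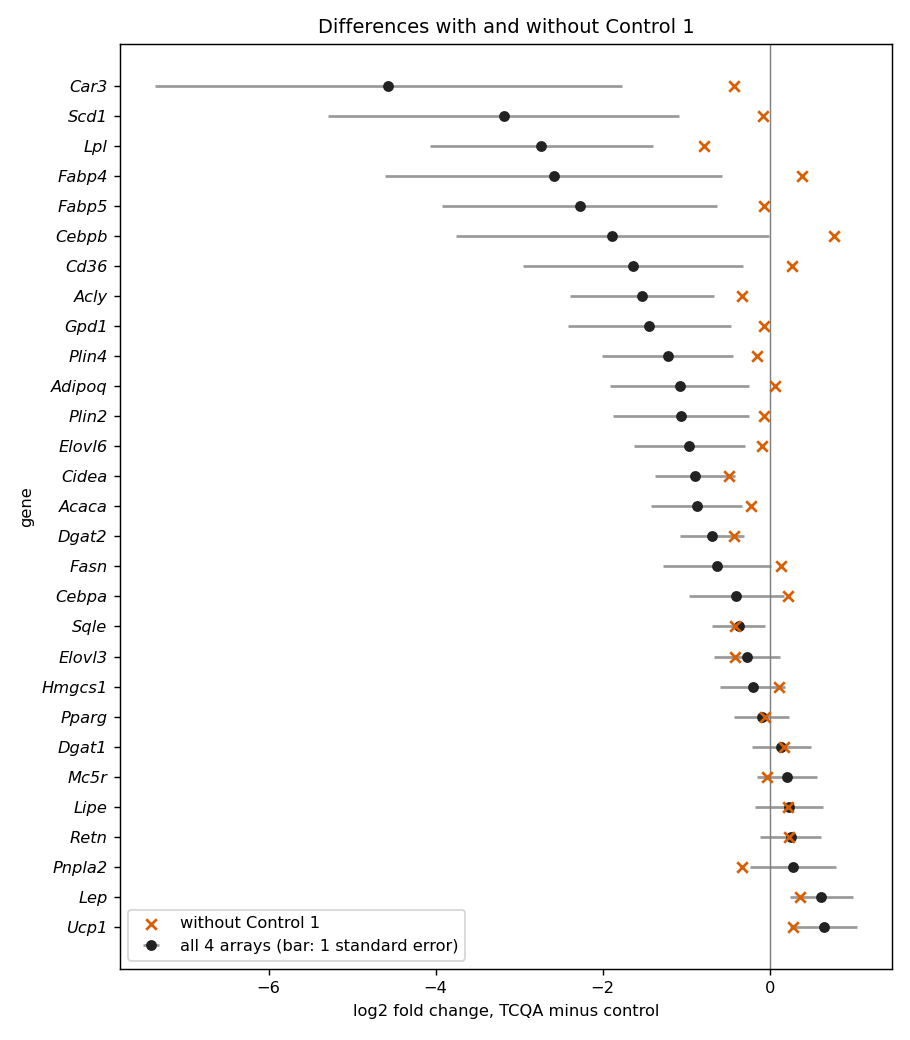
Log2 fold change, TCQA minus control (horizontal axis), of each lipid gene (vertical axis) from all 4 arrays (black points, with bars of 1 standard error from limma) and from TCQA 1, TCQA 2 and Control 2 alone (orange crosses). The points reach -4.56 for Car3, and the crosses all lie between -0.79 for Lpl and 0.77 for Cebpb.

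The hormones of fat cells did not move together. Adipoq encodes adiponectin, which raises insulin sensitivity. Its log2 signal was 3.20 on TCQA 1 and 2.80 on TCQA 2, against 5.21 on Control 1 and 2.94 on Control 2. Control 1 alone was high, and Control 2 lay between the TCQA arrays. The log2 fold change was -1.08 (SE 0.83, limma adjusted p = 0.923) and became 0.06 without Control 1. Lep encodes leptin, the satiety hormone that fat cells release in proportion to their stores. It measured 2.41 and 2.72 on TCQA 1 and TCQA 2, against 1.69 on Control 1 and 2.20 on Control 2. Both TCQA arrays were the higher ones, by 0.62 (SE 0.38), and by 0.36 with Control 2 as the only control. Retn, the gene of resistin, another hormone that mouse fat cells secrete, measured 4.46 and 3.90 with TCQA against 3.91 and 3.94 with vehicle, so that TCQA 1 alone was high. Of the adipocyte marker list, which joins Fabp4, Lipe, Plin1, Cfd and Cidec to the hormones, 5 genes were measured, and on Control 1 they stood at 8.48 for Fabp4, 5.21 for Adipoq, 3.91 for Retn, 2.03 for Lipe and 1.69 for Lep. Fabp4 and Adipoq were thus highest on Control 1, and the other 3 were not.

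The genes grouped as droplet proteins and fatty acid carriers, a role that here also includes the enzyme Car3, showed the widest gap. All 6 measured genes of this role were highest on Control 1, and their median was 2.99 on TCQA 1 and 3.23 on TCQA 2, against 7.43 on Control 1 and 3.16 on Control 2. Car3, carbonic anhydrase III, an abundant protein of fat cells and of slow muscle fibres, had 1.88 and 2.70 on TCQA 1 and TCQA 2, against 10.99 on Control 1 and 2.71 on Control 2. Among all probe sets of an array, Car3 stood at percentiles 21.8 and 59.2 on TCQA 1 and TCQA 2, against 99.97 on Control 1 and 56.4 on Control 2. Its log2 fold change was -4.56 (SE 2.79), or -0.43 without Control 1. The muscle markers given above were high on the same array, and their part in the Car3 value was not tested. Fabp4, the fatty acid binding protein of fat cells and also of capillary endothelium and macrophages, had 2.57 and 3.29 with TCQA, against 8.48 on Control 1 and 2.55 on Control 2. The difference of -2.58 (SE 2.02) turned to 0.38 without Control 1. The endothelial marker list had medians of 2.49 and 2.12 on the TCQA arrays, against 2.52 and 2.30 on the control arrays, and the macrophage list had 2.27 and 2.25, against 2.06 and 2.26. Control 1 was the highest array for 1 of 5 macrophage markers, Lyz2, with 2.48 and 2.25 with TCQA against 5.56 and 2.42 with vehicle. It was the highest for 2 of 4 endothelial markers, among them Cdh5, with 2.54 and 1.98 against 3.17 and 2.19. Other markers went the other way. Kdr had 4.37 and 4.66 with TCQA against 2.93 and 4.14 with vehicle, and Cd68 and Csf1r were lowest on Control 1, at 1.99 and 2.52. The part of these cell types in the Fabp4 value was not tested. Fabp5, the epidermal member of the same family, had 5.27 and 3.27 with TCQA, against 8.76 and 4.33 with vehicle. Here the TCQA arrays themselves were 2.00 apart, and the log2 fold change of -2.28 (SE 1.65) shrank to -0.06 without Control 1.

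Among the coat proteins, Plin2, which covers small droplets in most cell types, was fairly bright on all arrays, at 4.86 and 3.80 with TCQA against 6.39 and 4.39 with vehicle. Relative to its array Plin2 stood at percentile 97.2 on TCQA 1 and 88.7 on TCQA 2, against 96.05 on Control 1 and 94.2 on Control 2, so that Control 1 was not the highest by rank. Plin4, which fat cells and muscle use, had 3.07 and 3.19 on TCQA 1 and TCQA 2, against 5.43 on Control 1 and 3.28 on Control 2. The differences were -1.06 (SE 0.82) for Plin2 and -1.22 (SE 0.78) for Plin4, and became -0.07 and -0.15 without Control 1. Cidea, which helps droplets fuse in brown fat cells and in sebocytes, had 2.90 and 2.22 with TCQA, against 3.86 and 3.04 with vehicle. Both TCQA values lay below both vehicle values, with a log2 fold change of -0.89 (SE 0.48, limma adjusted p = 0.923), or -0.49 without Control 1.

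Of the 4 measured genes of uptake and lipolysis, 2 were highest on Control 1. Lpl, lipoprotein lipase, which frees fatty acids from circulating triglyceride, had 3.65 and 3.63 on TCQA 1 and TCQA 2, against 8.31 on Control 1 and 4.43 on Control 2. The TCQA arrays were the closest pair, 0.02 apart, and both controls lay above them. Its log2 fold change was -2.73 (SE 1.33), with the smallest unadjusted limma p of the members (0.102) and an adjusted p of 0.923. Without Control 1 it was -0.79 (SE 0.28), the lowest value of the 29 members, at an adjusted p of 1. The second probe set of Lpl did not repeat that gap, with 1.53 and 1.23 on the TCQA arrays, against 4.60 on Control 1 and 1.36 on Control 2. Cd36, the fatty acid transporter shared by fat cells, muscle, capillaries and macrophages, had 1.95 and 2.40 with TCQA against 5.72 and 1.91 with vehicle, so that Control 2 was the lowest array. Neither Lipe nor Pnpla2 was highest on Control 1. Lipe, hormone-sensitive lipase, had 1.90 and 2.67 with TCQA against 2.03 and 2.07 with vehicle. Pnpla2, adipose triglyceride lipase, which starts triglyceride breakdown, had 2.71 and 2.81 with TCQA against 1.87 and 3.08 with vehicle, and Control 1 was its lowest array. Their log2 fold changes were 0.23 (SE 0.41) and 0.28 (SE 0.52), or 0.22 and -0.33 without Control 1.

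The groups overlapped for all 3 measured transcription factors of fat cell formation. Pparg, the nuclear receptor that drives the programme, had 2.14 and 2.38 on TCQA 1 and TCQA 2, against 2.39 and 2.32 on Control 1 and Control 2. These 4 values lay close together, and the difference was -0.09 (95% interval -0.97 to 0.78). Cebpa, its partner in mature fat cells, had 3.24 and 3.95 with TCQA against 4.61 and 3.38 with vehicle, and the groups overlapped. Cebpb, which acts early in the programme and also in inflammation and in epidermis, had 1.83 and 3.39 with TCQA against 7.15 and 1.84 with vehicle. Cebpb was thus high on Control 1 and raised on TCQA 2, while TCQA 1 and Control 2 were alike, and its log2 fold change was -1.88 (SE 1.87), or 0.77 without Control 1, the highest of the members. Its other probe sets differed by -1.29 and by 0.52.

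All 6 measured genes of fatty acid synthesis had a negative log2 fold change, and Control 1 was the highest array in 5 of them. Acly, ATP citrate lyase, which supplies cytosolic acetyl-CoA, had 2.33 and 2.05 on TCQA 1 and TCQA 2, against 4.91 on Control 1 and 2.52 on Control 2. Acaca, acetyl-CoA carboxylase, the committed step of the chain, had 2.37 and 2.15 with TCQA against 3.79 and 2.49 with vehicle. Both genes had each TCQA value below each vehicle value, with differences of -1.53 (SE 0.86) and -0.88 (SE 0.54), which shrank to -0.33 and -0.22 without Control 1. Fasn, fatty acid synthase, had 3.94 and 3.26 with TCQA against 5.00 and 3.46 with vehicle, and its -0.63 (SE 0.64) became 0.14. Scd1, the desaturase that makes oleate in fat cells and in sebaceous glands, had the second largest gap of all members, with 3.05 and 2.48 with TCQA against 9.05 and 2.85 with vehicle. Control 2 lay between both TCQA arrays, and the log2 fold change of Scd1 was -3.18 (SE 2.10), or -0.08 without Control 1. Elovl6, which lengthens palmitate to stearate, had 3.29 and 3.17 with TCQA against 5.06 and 3.32 with vehicle. Elovl3, the elongase of sebocytes and brown fat that makes very long chains, was the only gene of this role without a Control 1 peak, at 3.13 and 3.76 with TCQA against 3.57 and 3.87 with vehicle.

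Triglyceride assembly followed no single order. Gpd1, which makes the glycerol phosphate backbone, had 2.58 and 2.85 on TCQA 1 and TCQA 2, against 5.54 and 2.78 on Control 1 and Control 2. Its difference was -1.44 (SE 0.98), and -0.07 without Control 1. Dgat1 and Dgat2 encode the acyltransferases that add the last fatty acid. Dgat1 had 2.96 and 3.40 with TCQA against 3.08 and 3.001 with vehicle, whereas Dgat2 had 4.18 and 3.83 with TCQA against 4.96 and 4.43 with vehicle. Dgat2 was lower on both TCQA arrays, with a log2 fold change of -0.69 (SE 0.38, limma adjusted p = 0.923), or -0.43 without Control 1, but its dimmer probe set differed by 0.20. After a quantile normalization the Dgat2 value was -0.18, and by rank the groups overlapped, at percentiles 92.0 and 89.1 with TCQA against 89.6 and 94.5 with vehicle.

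For sterols, Sqle, squalene epoxidase, had 3.06 and 3.13 on TCQA 1 and TCQA 2, against 3.42 and 3.51 on Control 1 and Control 2. The replicates of Sqle were within 0.09 of each other in both groups, tighter than those of any other member in both groups at once, and the log2 fold change was -0.37, with -0.41 left without Control 1. Limma, which borrows spread from all probe sets, gave an SE of 0.32 and an adjusted p of 0.923, and the unmoderated test gave an SE of 0.06 and an adjusted p of 0.888. Hmgcs1, which makes the HMG-CoA of the sterol chain, was dim, with 1.47 and 1.24 with TCQA against 1.87 and 1.24 with vehicle. Its probe set ranked at percentiles 7.03 and 1.12 of the TCQA arrays and at percentiles 34.1 and 2.05 of Control 1 and Control 2.

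Ucp1, the uncoupling protein of brown fat, had 2.80 and 2.71 with TCQA against 1.74 and 2.48 with vehicle. Both TCQA arrays were higher, by 0.65 (SE 0.40), of which 0.28 was left without Control 1. Mc5r, the melanocortin receptor of sebaceous glands, had 2.50 and 2.69 with TCQA against 2.16 and 2.63 with vehicle, and the groups overlapped. Control 1 was the lowest array for Lep, Pnpla2, Ucp1 and Mc5r. None of the 4 had a value above 3.08, and Control 1 was the lowest array for 53.6% of all genes.

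Only 4 members, Sqle, Dgat2, Cidea and Lep, had a difference between the group means that exceeded the gap within either group (13.8%, against 11.3% of all genes). Without Control 1 the differences were -0.41, -0.43, -0.49 and 0.36, with a direction that the choice of these genes had already fixed. None passed the test, and the share was close to that over all genes.

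**Figure D3:**
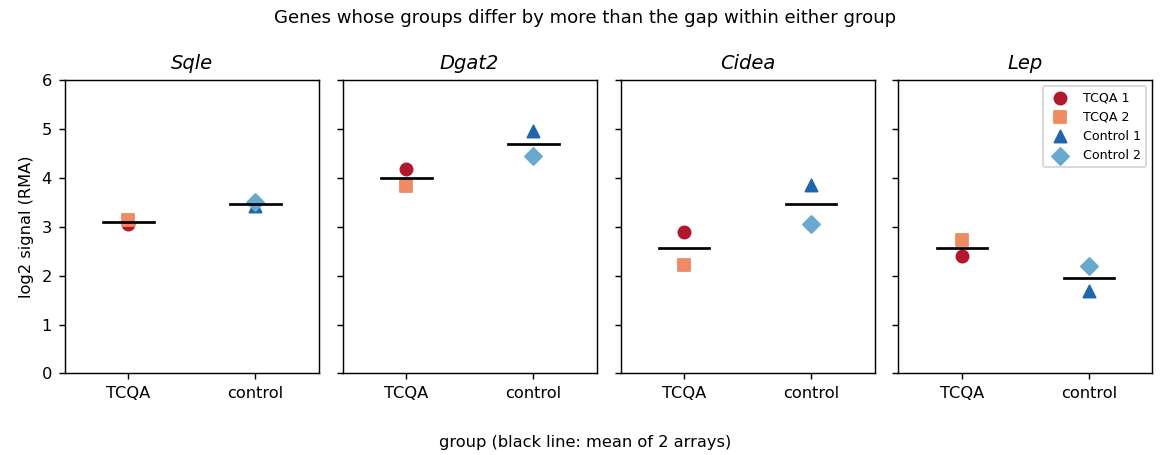
Log2 signal (vertical axis) of Sqle, Dgat2, Cidea and Lep on the 2 TCQA and the 2 control arrays, with a black line at each group mean. The TCQA symbols lie below both control symbols for Sqle, Dgat2 and Cidea and above them for Lep, with mean differences of -0.37, -0.69, -0.89 and 0.62.

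For 14 members, more than 1 probe set was available, and the probe sets of a gene did not always give the same picture. Control 1 was the highest array in 33 of the 51 probe sets (64.7%), against 28.0% of all 45037 probe sets. The peak was repeated by every probe set of Car3, whose other 3 had no value above 3.09 on the TCQA arrays or Control 2, against 9.01, 5.84 and 3.46 on Control 1. It was repeated likewise by Fabp4 (7.17 and 4.14), Fabp5 (5.61), Cd36 (4.49 and 4.45), Lpl (4.60), Acly (2.94) and Scd1 (3.17). The fold changes of a gene's probe sets differed in sign for 5 members, Acaca, Cebpb, Dgat2, Elovl6 and Gpd1. The second probe set of Acaca differed by 0.42 and was lowest on Control 1, at 1.43. The other 2 of Elovl6 differed by -0.26 and 0.21, and the other 3 of Gpd1 by -0.01, 0.10 and 0.19. Probe sets of a gene differed by more than 1 in their fold change for 9 members, namely Acaca, Acly, Car3, Cebpb, Elovl6, Fabp4, Gpd1, Lpl and Scd1. Choosing the brightest probe set without Control 1 picked another one for 6 members, Cd36, Car3, Fabp4, Cebpb, Dgat1 and Gpd1, and turned Cebpb to 0.52 and Gpd1 to 0.10.

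**Figure D4:**
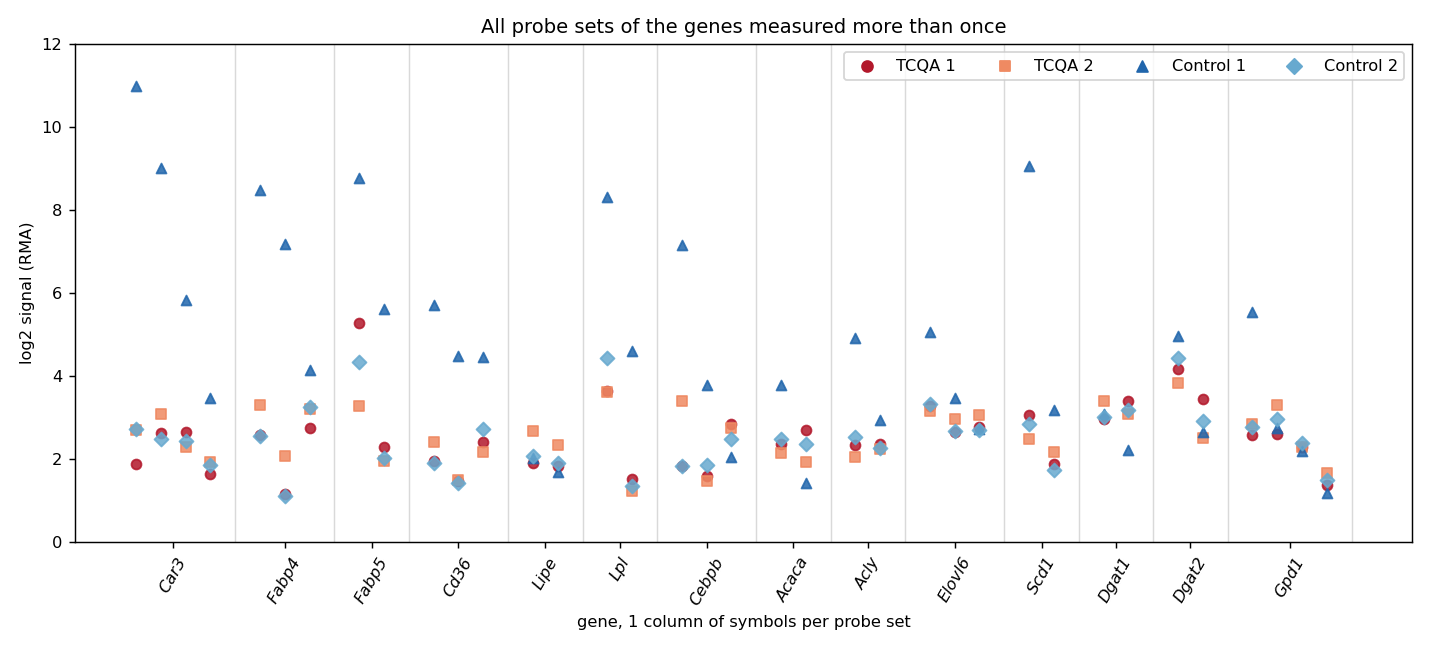
Log2 signal (vertical axis) of every probe set of the 14 lipid genes that had more than 1 (horizontal axis, 1 column of 4 symbols per probe set, ordered by Control 1 within a gene). All 4 columns of Car3 have the Control 1 triangle on top, from 10.99 to 3.46, whereas only the first of the 4 columns of Gpd1 does, at 5.54.

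The further genes of each chain were read from lists of their own, and 0 of them passed the limma test in either direction in any list. Fatty acid oxidation, which burns what lipolysis releases, had the lowest median. All 14 of its 17 genes that were measured had a negative log2 fold change and were highest on Control 1, with a median of -1.61, or -0.08 without Control 1. Acadl, a long-chain acyl-CoA dehydrogenase, had 1.56 and 1.62 with TCQA against 6.82 and 1.62 with vehicle. The further 16 genes of fatty acid synthesis had a median of -0.73, 13 of them below 0, and -0.01 without Control 1. Elovl5, an elongase of polyunsaturated chains, had 1.69 and 2.19 with TCQA against 6.72 and 2.26 with vehicle.

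Droplet and lipolysis genes had a median of -0.48 over 10 genes, 7 of them below 0. Mgll, the monoglyceride lipase that completes droplet lipolysis, had 3.08 and 3.38 with TCQA against 7.06 and 3.46 with vehicle, a log2 fold change of -2.03 (SE 1.25), or -0.23 without Control 1. Cav1, which builds the caveolae of the fat cell membrane, had 3.64 and 3.76 with TCQA against 7.59 and 3.25 with vehicle, so that its -1.72 (SE 1.48) turned to 0.45. Both peaked on Control 1, as Lpl and Cd36 did. Plin5, the perilipin of oxidative tissues, had 1.87 and 1.61 with TCQA against 3.32 and 2.43 with vehicle, and its log2 fold change of -1.13 (SE 0.45) kept -0.69 without Control 1. Triglyceride synthesis was the only further chain with a median above 0, at 0.26 over 10 genes, 6 of them above 0. Its largest difference nevertheless ran the other way, since Gpam, which adds the first fatty acid to glycerol phosphate, had 4.91 and 5.52 with TCQA against 9.21 and 4.85 with vehicle. Sterol synthesis had a median of -0.14 over 17 genes, 12 below 0, and fat cell identity and insulin response had -0.30 over 18, 13 below 0. Sebaceous gland genes divided evenly, 4 below 0 and 4 above, with a median of -0.27. The largest difference of each of these lists was again a Control 1 peak, at 8.38 for Adipor1, an adiponectin receptor, 5.31 for Scap, which escorts the sterol-sensing transcription factors, and 7.16 for Mgst1, a microsomal glutathione transferase. Without Control 1 the medians of these 7 lists lay between -0.08 and 0.13, against -0.03 over all genes.

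**Figure D5:**
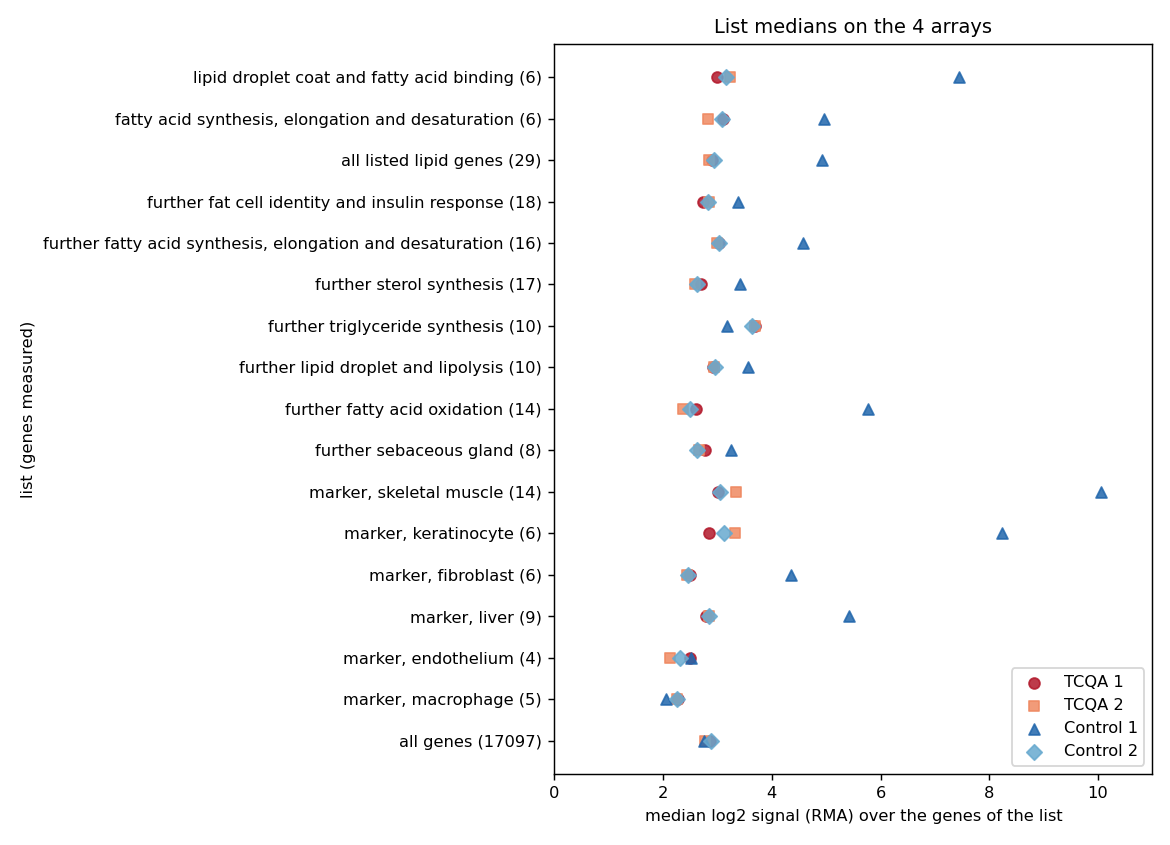
Median log2 signal (horizontal axis) of the lipid genes, of the further lipid chains and of markers of other cell types (vertical axis, number of measured genes in brackets) on TCQA 1, TCQA 2, Control 1 and Control 2. The 3 arrays other than Control 1 lie within 0.5 of each other in every row, whereas Control 1 reaches 10.05 for skeletal muscle markers and 4.91 for all listed lipid genes and stays near the others for endothelial and macrophage markers.

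Promoters are shown for 4 members to set genes with and without the Control 1 peak side by side, chosen after their values were seen. Of the measured members, 15 had a single RefSeq window (GRCm38.p6), which runs from 250 bases before to 50 bases after the gene start, 9 of them with a Control 1 value more than 1 above every other array and 6 without. Capitals mark every match, on either strand, to TATAAA (the TATA box), CCAAT (the CCAAT box), GGGCGG (the GC box), CACGTG (an E-box), TCACNCCAC (a sterol element), AGGTCA (a nuclear receptor half-site) or TTGCGCAA (a C/EBP palindrome). No match to one motif overlapped a match to a different motif, while CCAAT matches overlapped each other in the Fasn window. Adipoq lies on the plus strand at chr16:23146286-23146585, Plin2 on the minus strand at chr4:86670010-86670309, Fasn on the minus strand at chr11:120824498-120824797 and Lep on the plus strand at chr6:29059971-29060270, and each window is written 5′ to 3′ along its gene.
Adipoq: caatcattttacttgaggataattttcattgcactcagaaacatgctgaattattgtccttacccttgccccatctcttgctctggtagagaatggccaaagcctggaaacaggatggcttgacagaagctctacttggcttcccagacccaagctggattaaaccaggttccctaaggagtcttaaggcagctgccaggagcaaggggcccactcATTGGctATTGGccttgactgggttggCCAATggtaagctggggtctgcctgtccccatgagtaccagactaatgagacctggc
Plin2: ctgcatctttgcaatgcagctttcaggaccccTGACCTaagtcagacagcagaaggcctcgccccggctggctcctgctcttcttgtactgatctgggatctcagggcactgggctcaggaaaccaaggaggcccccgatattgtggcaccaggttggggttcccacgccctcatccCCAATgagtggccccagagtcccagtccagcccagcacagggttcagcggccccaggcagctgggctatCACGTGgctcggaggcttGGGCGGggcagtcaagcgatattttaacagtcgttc
Fasn: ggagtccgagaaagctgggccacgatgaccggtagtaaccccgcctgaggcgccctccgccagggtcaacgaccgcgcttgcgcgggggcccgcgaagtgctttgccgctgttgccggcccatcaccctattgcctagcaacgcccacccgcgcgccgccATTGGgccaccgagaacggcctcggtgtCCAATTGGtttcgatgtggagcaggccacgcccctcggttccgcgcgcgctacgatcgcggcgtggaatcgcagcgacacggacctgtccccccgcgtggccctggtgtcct
Lep: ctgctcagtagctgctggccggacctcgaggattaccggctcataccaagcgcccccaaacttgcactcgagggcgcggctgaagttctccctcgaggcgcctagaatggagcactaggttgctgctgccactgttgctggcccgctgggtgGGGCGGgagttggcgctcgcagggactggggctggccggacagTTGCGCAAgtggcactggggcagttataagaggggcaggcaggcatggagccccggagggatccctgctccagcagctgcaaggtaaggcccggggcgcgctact
By log2 signal, Adipoq, Plin2 and Fasn peaked on Control 1, whereas Lep was lowest there. By rank the peak was clear only for Adipoq, at percentile 91.1 on Control 1 against 72.9 on TCQA 1. Fasn stood at percentile 89.9 on Control 1 against 88.85 on TCQA 1, and Plin2 at 96.05 against 97.21. CCAAT was found in 6 of the 9 windows of genes with the peak and in 1 of the 6 others, where 37.4% of all 32851 windows hold it. The GC box was found in 4 of 9 and 3 of 6 (35.7% of all windows), the half-site in 4 of 9 and 2 of 6 (16.3%) and the TATA box in 1 of 9 and 1 of 6 (13.6%). The E-box was found in Plin2 alone (7.15%), the sterol element in Hmgcs1 alone (1.24%) and the C/EBP palindrome in Lep alone (0.183%). These matches describe the letters of the windows and were not tested as sites.

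Whether the members differ between TCQA and vehicle depended on which vehicle array was used. With Control 2 left out, limma called 14 of 29 members lower with TCQA at an adjusted p under 0.05 and 0 higher, where 20.3% of all genes were called lower and 8.40% higher. The 14 were Acaca, Acly, Elovl6, Scd1, Cd36, Lpl, Car3, Fabp4, Fabp5, Plin2, Plin4, Adipoq, Cebpb and Gpd1. With Control 1 left out, limma called 0 members, and 1, Lpl, had an unadjusted p under 0.05. In each case the lone vehicle array was assumed to vary like the TCQA arrays.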

How the data were processed

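RNA of 4 skin samples was read on Affymetrix mouse PM strips. The values deposited by the authors are log2 signals from RMA, a method that removes background, brings probe intensities to a common scale and condenses them into probe sets. Besides RMA, the submitters' processing notes list Transcriptome Analysis Console and Affymetrix Expression Console. Whether the arrays were normalized together is not given in the sources used here. The 104 control probe sets were left out of 45141, and the remaining 45037 were fitted without a second normalization or filter by lmFit and eBayes of limma (version 3.58.1, under R 4.3.3), two-sided, with 2 residual degrees of freedom and Benjamini-Hochberg adjustment over all 45037. Of these, 28898 name 1 gene in the platform annotation, 551 name several and 15588 are not listed. All listed genes are named, with 1 to 3 genes of each further list by size of difference. Of the marker lists, Lyz2, Cd68, Csf1r, Cdh5 and Kdr are named. The genes and lists were chosen with earlier results of these data known. Alternatives were a quantile normalization, median centring, a filter on dim probe sets, limma's trend and robust options, an unmoderated test (the study's analysis of variance), a replicate block, other choices of probe set and leaving out each array. The limma step was tested on data simulated from the means and spreads of the arrays other than Control 1, so the Control 1 spread was not covered. Log2 signals have no read depth, and the number of arrays limits the precision.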

Additional observations from a re-analysis of the deposited data

How the results depend on the processing

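The count of members under an adjusted p of 0.05 was 0 in every alternative except without Control 2 (range over single arrays left out 0 to 14), and the direction of the median log2 fold change of the members (-0.88) was kept in all, but its size was -0.36 after quantile normalization and -0.37 with the mean of probe sets. At the study's thresholds the count of 0 became 1 after quantile normalization (Lpl), 1 with the array number as a replicate block (Fabp5) and 18 without Control 2, with a range of 0 to 18 over single arrays left out. Without Control 2 the share of all genes at the study's thresholds was not computed, so the count of members there cannot be set against a background. That count also rests on a lone vehicle array, and is no sign of a difference particular to the members. With single arrays left out, the median log2 fold change of the members ranged from -1.40 without Control 2 to -0.06 without Control 1. The median over all genes was -0.03 without Control 1, so the negative direction kept there was close to that of all genes. The count of members whose groups did not overlap, 11 over 4 arrays, ranged from 15 to 25 over single arrays left out. Fewer arrays are compared in those settings, and groups then separate more easily by order alone. The rise is therefore no sign of a stronger difference, and the share over all genes was not computed there. The paper's analysis was unpaired, and the labels do not say whether the array numbers pair the samples. The deviations of same-numbered arrays correlated at r = -0.12 over 45037 probe sets. This cannot decide the question, since the control deviation holds the Control 1 gap. The block changed no adjusted call, where none was made without it. A crossed pairing, added after seeing the data, called 0 members by either count.

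Log2 fold changes turned for Cebpa after quantile normalization (0.0797) and for Cebpb (0.52) and Gpd1 (0.10) with the probe set chosen without Control 1, and the cause was not tested. With single arrays left out, they ranged from -1.01 to 0.22 for Cebpa, -4.54 to 0.77 for Cebpb, -1.40 to 0.14 for Fasn, -3.54 to 0.27 for Cd36, -5.55 to 0.38 for Fabp4, -2.21 to 0.0604 for Adipoq, -0.51 to 0.11 for Hmgcs1, -0.33 to 0.89 for Pnpla2 and -0.0272 to 0.438 for Mc5r, turning without Control 1. They ranged from -0.585 to 0.0439 for Elovl3, -0.0304 to 0.533 for Retn and -0.214 to 0.0303 for Pparg, turning without TCQA 1, and from -0.15 to 0.62 for Lipe and -0.0826 to 0.361 for Dgat1, turning without TCQA 2. The filter on dim probe sets left 23 members. Leaving out probe sets with a letter suffix in their name, such as _a_at or _s_at, left 28 and dropped Pparg. The arrays give no detection calls, so differences of dim genes have no stated floor.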
